A study of Mus musculus with 8 samples.

Results

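The end state of stimulated EpH4 cells was set against that of 3 other stimulated mouse epithelial lines, on 4 of the 8 arrays of the series. The members were chosen by sample label: the stimulated EpH4 array, and the stimulated arrays of mProx, MCT and NMuMG. EpH4 is a mammary gland epithelial line that the labels mark as EMT resistance, mProx is a proximal renal tubular line, MCT a renal tubular line and NMuMG a mammary gland line. All 4 had been given recombinant human TGF-β1 at 3 ng/mL and recombinant human EGF at 3 ng/mL for 24 h, after 24 h in a K-1 medium with insulin and transferrin. The resting arrays of the same 4 lines, kept in that medium without the growth factors, serve as the state before stimulation. No genotype, allele or passage is given in the labels. Each line gave 1 array per state, and the labels do not give the number of cultures behind it. EpH4 is thus 1 line on 1 array, and resistance to the transition cannot be told apart from any other property of that line.

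In the epithelial-mesenchymal transition (EMT), epithelial cells give up the junctions that join them and take on a fibroblast-like shape, cytoskeleton and matrix. TGF-β acts through receptor kinases and SMAD proteins to raise transcription factors of the Snail, ZEB and Twist families, which repress genes such as E-cadherin by binding E-box letters in their promoters. Growth factors of the EGF family act through ErbB receptors and the ERK pathway and often strengthen this response.

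A level is the log2 of an array's normalised signal, and levels are compared between lines for 1 gene at a time. A level under 5.29, which is a deposited signal of about 28.6, is called dim, and a difference that rests on a dim level is inexact in size. Where 3 values follow that of EpH4 without names, they are those of mProx, MCT and NMuMG in that order. Median deposited signals were 41.5 to 51.5 on the stimulated arrays. The 10 tested housekeeping genes, used for normalisation in many studies, differed by a median of -0.03 between stimulated EpH4 and the mean of the other lines, against 0.07 over all 14474 genes tested. Of these 10, 2 lay above each other line and 5 below each (50%, against 24.5% of all genes). Such counts ignore size: Actb counted as below at 13.27 in EpH4, against 13.38, 13.32 and 13.28. Markers of other cell types were looked up as well. Of 5 tested endothelial genes 0 lay above and 0 below all the other lines, of 8 fibroblast genes 1 lay above and 3 below, and of 7 leukocyte genes 3 lay above and 2 below. The summed deposited signals of all members with a probe set in EpH4 against the range of the other lines were 304 against 306 to 552 for fibroblast, 260 against 211 to 299 for endothelial and 790 against 1000 to 1228 for leukocyte genes. By these sums EpH4 lay below the other lines for leukocyte and, narrowly, fibroblast genes, and inside their range for endothelial genes. The leukocyte sum rested largely on Cd14, with signals of 267 in EpH4 against 532, 658 and 816. Counted by gene, more leukocyte members lay above each other line than below. Ptprc, Itgam, Pecam1, Tek, Lum and Pi16, defining markers of leukocytes, endothelium and fibroblasts, were dim on all 4 stimulated arrays. Other members were not: above the dim level in EpH4 were 4 of the 8 fibroblast, 5 of the 5 endothelial and 5 of the 7 leukocyte genes. Cd14, a monocyte coreceptor, was at 8.02 in EpH4, against 8.97 in mProx, 9.61 in MCT and 9.82 in NMuMG, and Csf1r, a macrophage receptor, at 7.64, against 7.63, 7.02 and 7.58. Dcn, a fibroblast proteoglycan, was at 7.53 in mProx and dim in the other 3 lines. The part of such cells in any difference was not tested. In lysed cultures, fewer cells of a type and less RNA per cell cannot be told apart.

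After stimulation EpH4 held high levels of the tight junction genes Cldn3 and Cldn7, the surface gene Epcam, the keratin genes Krt7 and Krt14 and the splicing regulator gene Esrp1, which were dim or far lower in the other lines. It had almost no signal for the mesenchymal filament gene Vim and the cadherin gene Cdh2 and low Zeb1, all of them high in the other 3 lines. Other mesenchymal genes, such as Fn1 and Axl, were high in all 4 lines, and Postn and Mmp9 were higher in EpH4 than in each other line. Of all these, Vim alone passed the test across genes.

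Stimulated EpH4 and stimulated NMuMG each stood apart from the kidney lines, and they stood furthest from each other although both are mammary. At least 4-fold differences separated EpH4 from mProx in 1108 genes (7.66%), from MCT in 972 (6.72%) and from NMuMG in 1186 (8.19%). The other lines differed among themselves by that much in 538 genes (3.72%) for mProx against MCT, 979 (6.76%) for mProx against NMuMG and 960 (6.63%) for MCT against NMuMG. The nearest pair was mProx and MCT. EpH4 was at least 4-fold above each of the other 3 lines in 182 of 14474 genes (1.26%) and at least 4-fold below each in 187 (1.29%). These counts were 100 and 84 with the offset at the 50th percentile, and the count below was 123 with levels floored at 5.29 and 325 without NMuMG. Over 32520 probe sets passing the same filter these counts were 319 (0.981%) and 350 (1.08%). Of the 182, 79 were dim in all 3 other lines, and of the 187, 121 were dim in EpH4. Without the size limit, EpH4 lay above each line in 4728 genes (32.7%) and below each in 3552 (24.5%), which is the background for every count of members below.

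In limma's test of stimulated EpH4 against the other 3 lines, 0 genes passed as higher (0%) and 1 as lower (0.00691%), at a two-sided Benjamini-Hochberg adjusted p under 0.05. At an unadjusted p under 0.05 there were 1379. The test has 1 array on one side and 3 lines on the other, which leaves 2 residual degrees of freedom, and the lone EpH4 array is assumed to vary as the other lines do. In a fit of all 8 arrays with the line as a random block, 41 genes passed as higher and 61 as lower. With levels under 5.29 set to that value, 198 and 11 passed, because equal floored values have no spread. The fit of all 8 arrays counts the resting array of each line, which is not an independent replicate. It still holds only 1 EpH4 line. Levels on every array are therefore given first, and every gene without a stated call did not pass.

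**Figure D1:**
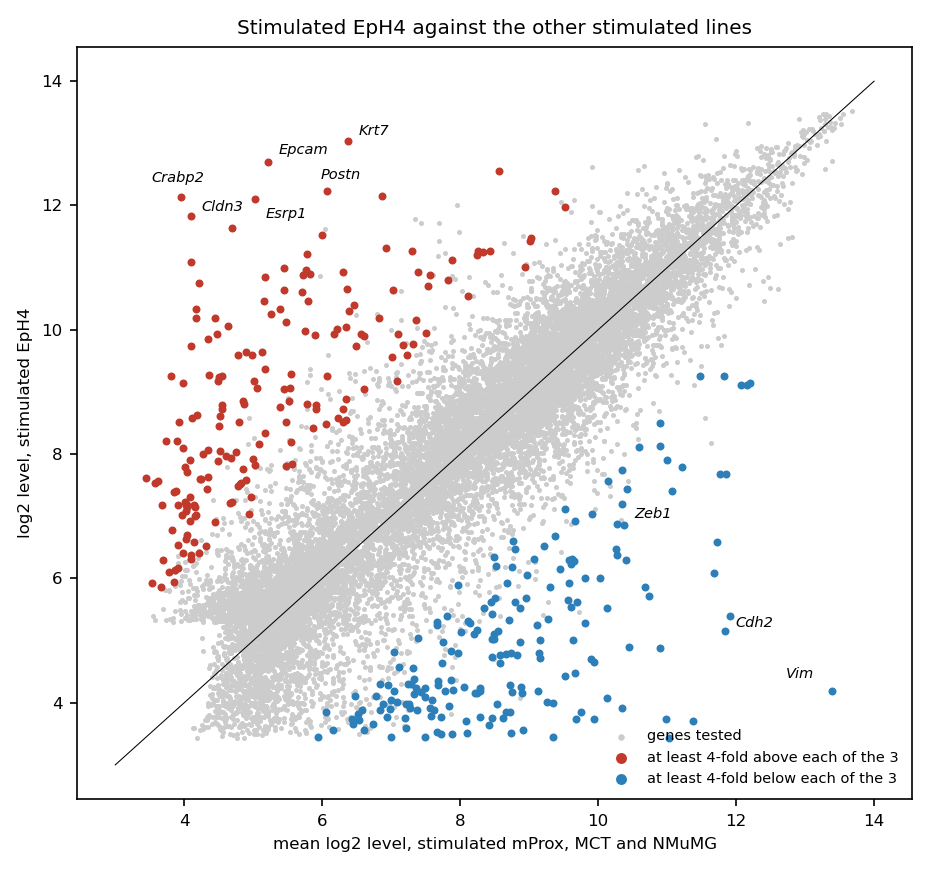
Level of each tested gene in stimulated EpH4 (vertical axis, log2) against its mean level in stimulated mProx, MCT and NMuMG (horizontal axis, log2), 1 point per gene, with the line of equality. Red marks the 182 genes at least 4-fold above each of the other lines and blue the 187 at least 4-fold below each; Vim, at 4.19 in EpH4 against a mean of 13.38, lies farthest from the line of equality.

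The gene that passed was Vim, which encodes vimentin, the intermediate filament of mesenchymal cells and the usual marker of a completed EMT. Its deposited signal was 7.1 in stimulated EpH4, against 9912 in mProx, 9929 in MCT and 11934 in NMuMG. On the log2 scale it was at 4.19 in EpH4 and at 13.38 ± 0.08 in the other lines (SD, n = 3). Vim was dim in EpH4 and near the top of the scale in each other line. The difference was -9.19 with an SE of 0.25 (limma adjusted p = 0.00525), and since the EpH4 level is dim, it is best read as at least 273-fold lower, a bound that takes the dim level as 5.29. Both further Vim probe sets shared the direction. The call was lost without mProx (adjusted p = 0.382), without MCT (0.124) and without the intensity trend (0.0786), while the difference stayed between -9.19 and -9.23 in these 3 fits. At rest the levels were 4.02 in EpH4 and 13.20, 13.26 and 13.31 in the other lines, so Vim was dim in EpH4 before as well as after stimulation.

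Cadherins showed the same divide in part. Cdh2 encodes N-cadherin, which mesenchymal cells use in place of E-cadherin. It was at 5.16 in stimulated EpH4, against 11.74 in mProx, 11.24 in MCT and 12.55 in NMuMG, which puts EpH4 at least 93.9-fold lower. The difference of -6.69 had an SE of 0.57 and did not pass (adjusted p = 0.0856). Cdh1, encoding E-cadherin, the adhesion molecule of epithelial cell contacts, was at 11.61 in EpH4, against 3.57 in mProx, 4.47 in MCT and 10.06 in NMuMG. EpH4 was highest, but NMuMG also held Cdh1 well above the dim level, and only the kidney lines were dim. With such a spread the difference of 5.58 had an SE of 2.64 (adjusted p = 0.599). Cdh1 was at 11.61 in stimulated EpH4 and 11.84 in resting EpH4, and at 10.06 in stimulated NMuMG and 10.69 in resting NMuMG.

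The other adherens junction genes differed less. Of 11 tested, 5 lay above each other line and 2 below each, and all 11 were measured above the dim level in EpH4. Nectin4, a nectin adhesion molecule of epithelia, stood out at 10.46 in EpH4, against 5.90 in mProx, 6.61 in MCT and 4.88 in NMuMG. Jup, encoding plakoglobin, was at 10.58 in EpH4, against 9.88 in mProx, 10.15 in MCT and 10.06 in NMuMG. Nectin3 went the other way, with 8.34 in EpH4 against 8.87, 8.96 and 9.97, a direction that 2 of its 5 further probe sets shared. P-cadherin, encoded by Cdh3, was highest in MCT at 8.03, against 5.78 in EpH4.

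Several tight junction genes were far apart between EpH4 and the other lines. Claudins are the membrane proteins that form the seal between epithelial cells, and Cldn3 and Cldn7 were high in EpH4 alone. Cldn3 was at 11.84 in stimulated EpH4, against 4.08 in mProx, 4.12 in MCT and 4.10 in NMuMG, so it was dim in each of the other lines. EpH4 was at least 93.6-fold higher, with a difference of 7.74 and an SE of 0.45 (adjusted p = 0.0726). The 3 further Cldn3 probe sets had the same direction. Cldn7 was at 11.63 in EpH4, against 4.71 in mProx, 4.24 in MCT and 5.15 in NMuMG, and EpH4 was at least 81.1-fold higher (difference 6.93, SE 0.56, adjusted p = 0.0856).

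Other claudins were shared with some of the lines. Cldn4 was at 12.55 in stimulated EpH4, against 5.56 in mProx, 10.42 in MCT and 9.71 in NMuMG, and thus at least 4-fold above each. At rest the gap was wider, with 12.03 in EpH4 against 5.31, 6.09 and 7.95. The stimulated minus resting difference of Cldn4 was 0.52 in EpH4, against 0.25 in mProx, 4.33 in MCT and 1.75 in NMuMG. It was larger in MCT and NMuMG, which the labels do not mark as resistant, than in EpH4. Cldn9 was at 10.87 in EpH4 and 9.09 in MCT, against 4.99 in mProx and 3.84 in NMuMG.

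Occludin and tricellulin, membrane proteins of the same seal, followed the claudins. Ocln was at 9.29 in EpH4, against 3.63 in mProx, 6.82 in MCT and 6.20 in NMuMG. Marveld2, encoding tricellulin at the corners where several cells meet, was at 8.80 in EpH4, against 4.48, 5.38 and 3.80. Of 20 tested tight junction genes, 10 lay above each other line (50%) and 3 below each (15%), and 6 were at least 4-fold above each with 0 at least 4-fold below. Above the dim level were 19 of the 20 in EpH4, against 11 in mProx, 15 in MCT and 12 in NMuMG. Their median difference was 0.68 after stimulation and 0.44 at rest. The list was not uniform: Tjp3, a scaffold gene, was at 6.11 in EpH4 and 7.11 in mProx. The claudin genes Cldn1 and Cldn2, named after their values were seen, were each far higher in another line. Cldn1 was at 6.40 in EpH4, against 10.03 in mProx and dim or near-dim levels of 5.21 in MCT and 5.50 in NMuMG. Cldn2 was lowest in EpH4 at 5.53, against 5.87, 5.76 and 9.98.

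Desmosomes anchor keratin filaments at cell contacts, and 7 of their 11 tested genes lay above each other line (63.6%), with 1 below each. Pkp3, encoding the plaque protein plakophilin 3, was at 9.91 in EpH4, against 6.36 in mProx, 6.54 in MCT and 6.90 in NMuMG (difference 3.30, SE 0.46, adjusted p = 0.152). Pkp2 was at 11.06 in EpH4, against 9.13, 9.18 and 8.58. The larger differences of other members came from 1 or 2 low lines. Dsp, encoding desmoplakin, was at 9.77 in EpH4 and 9.70 in MCT, against 4.06 in mProx and 8.80 in NMuMG. Pkp1 was at 11.72 in EpH4 and 10.24 in NMuMG, against 7.50 in mProx and 4.54 in MCT.

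Keratins, the intermediate filaments of epithelia, differed in both directions. Krt7, a simple-epithelium keratin, was at 13.03 in EpH4, against 6.76 in mProx, 4.64 in MCT and 7.71 in NMuMG, more than 4-fold above each. Krt14, a keratin of basal epithelial cells, was at 11.09 in EpH4 and dim in each other line, at 3.81, 4.08 and 4.42, so that EpH4 was at least 55.7-fold higher (difference 6.99, SE 0.51, adjusted p = 0.0856). These keratins each separated EpH4 from every other line. Krt8 and Krt18, the paired keratins of simple epithelia, did not do so by 4-fold. Krt8 was at 12.63 in EpH4 and 12.58 in NMuMG, against 10.67 in mProx and 6.48 in MCT, and Krt18 was at 12.80 in EpH4 but 13.14 in NMuMG. Krt19 ran the opposite way, being dim in EpH4 at 4.78, against 8.21 in mProx, 9.27 in MCT and 8.52 in NMuMG, which puts EpH4 at least 10.4-fold lower. Krt5, also a keratin of basal epithelial cells and named after its values were seen, did not follow Krt14. Its level was 6.83 in EpH4, against 5.85, 6.90 and 6.66. Of the 11 tested keratins 6 lay above each other line and 3 below each.

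Genes of the epithelial surface and of polarity gave the highest share. Of 21 tested, 15 lay above each other line (71.4%) and 2 below each (9.52%), 7 of them at least 4-fold above (33.3%), and their median difference was 2.33 after stimulation and 1.90 at rest. Epcam, encoding an epithelial adhesion molecule, was at 12.70 in EpH4, against 4.61 in mProx, 7.08 in MCT and 3.95 in NMuMG (difference 7.48, SE 1.29, adjusted p = 0.2). Rab25, a GTPase of apical recycling, was at 10.33 in EpH4 and dim elsewhere, at 4.17, 3.79 and 4.57, so EpH4 was at least 32.9-fold higher (adjusted p = 0.0856). Ap1m2, the epithelial subunit of a basolateral sorting adaptor, was at 10.19 in EpH4, against 4.0, 5.02 and 4.33, and at least 29.8-fold higher (adjusted p = 0.0953). For Rab25 and Ap1m2 the other 3 lines were all dim, while for Epcam MCT kept a measurable level.

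A set of membrane serine proteases and their inhibitor belongs to the same surface. St14, encoding matriptase, was at 10.85 in EpH4, against 4.20 in mProx, 5.43 in MCT and 5.88 in NMuMG. Prss8, encoding prostasin, was at 7.56 in EpH4 and dim elsewhere, at 3.55, 3.57 and 3.75. Spint1, which encodes an inhibitor of matriptase, was at 11.13 in EpH4, against 8.94, 8.67 and 6.04. All 3 were at least 4-fold above each other line. Cdcp1, a transmembrane protein cleaved by such proteases, was at 10.62 in EpH4, against 5.53, 6.05 and 5.52 (adjusted p = 0.0856). Crb3, of the apical Crumbs complex, was at 9.11 in EpH4, against 7.84, 7.88 and 7.28.

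Regulators of epithelial identity were split between strong and slight differences. Esrp1, a splicing factor that gives epithelial isoforms, was at 12.10 in EpH4, against 3.93 in mProx, 7.52 in MCT and 3.64 in NMuMG (difference 7.07, SE 1.66, adjusted p = 0.325). Its relative Esrp2 was at 8.59 in EpH4, against 6.13, 7.44 and 6.50, but its 1 further probe set did not share the direction. Ovol2, a zinc finger repressor of ZEB genes, was at 7.81 in EpH4, against 5.38, 5.70 and 5.34, and Grhl2, a grainyhead factor that activates junction genes, was at 8.04, against 6.36, 7.10 and 6.72. On the probe sets used, EpH4 was above each other line for all 4, and the gap to the nearest line ran from 4.58 for Esrp1 to 0.95 for Grhl2.

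Of 19 tested identity regulators, 10 lay above each other line (52.6%) and 1 below each (5.26%). That 1 was Foxa2, a forkhead factor of endodermal and glandular epithelia, which was dim in EpH4 at 4.23, against 7.22 in mProx, 7.46 in MCT and 7.80 in NMuMG. Elf3, an ETS factor of epithelia, was at 7.65 in EpH4, inside the range of 7.12 to 8.29 in the other lines, and the sign of its small difference depended on the scaling. Ehf, another epithelial ETS factor, was at 5.93 in stimulated EpH4 and dim elsewhere, at 3.58, 3.45 and 3.55. That puts EpH4 at least 1.56-fold higher, so the 4-fold separation of Ehf rests on dim levels. At rest Ehf was at 5.18 in EpH4 against 4.83, 3.50 and 6.60, so that NMuMG then lay above EpH4.

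**Figure D2:**
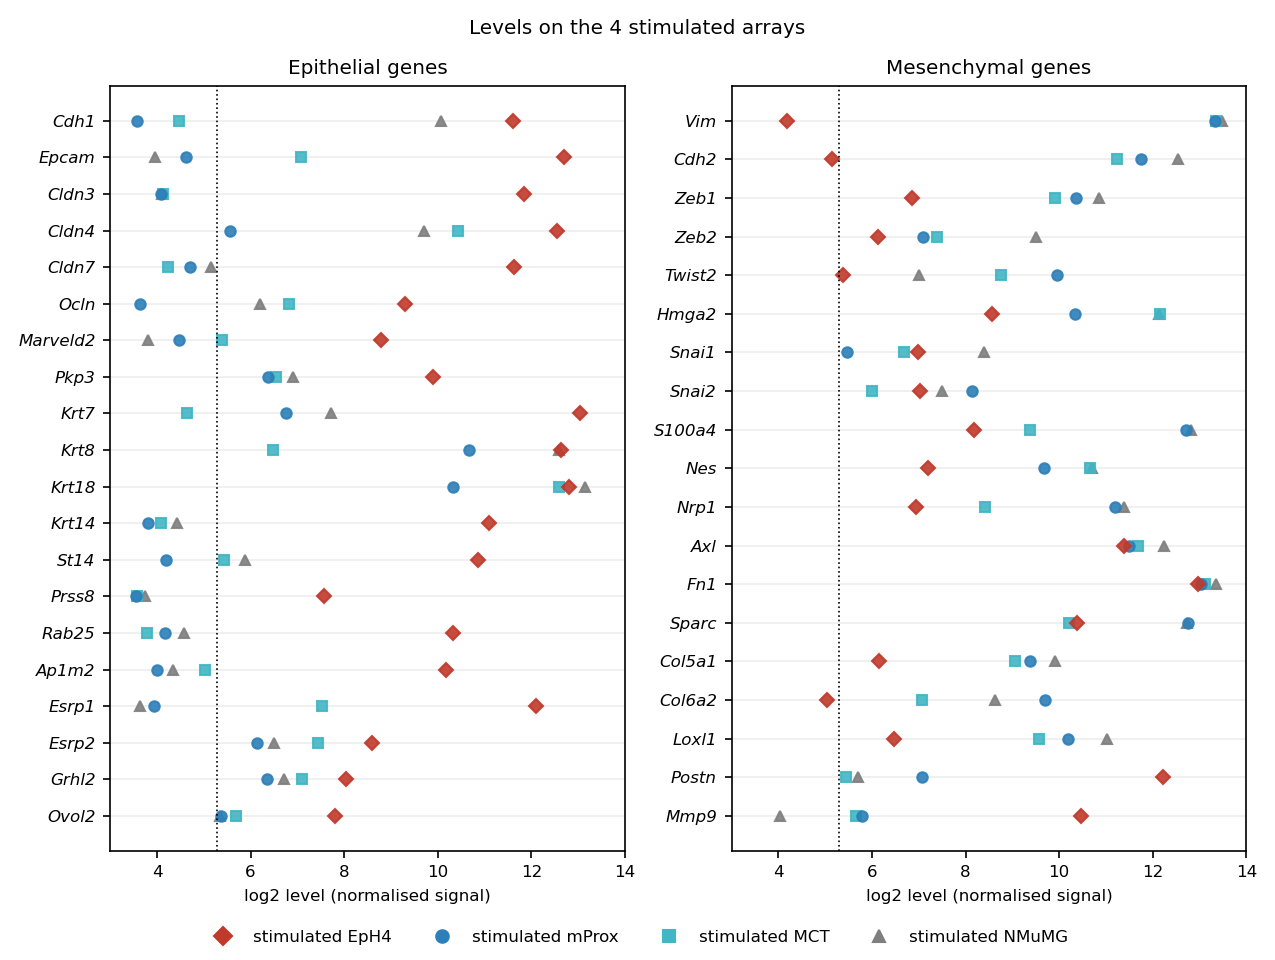
Log2 levels of 20 epithelial genes (left) and 19 mesenchymal genes (right) on the stimulated arrays of EpH4 (red diamonds), mProx, MCT and NMuMG, with the dim level of 5.29 as a dotted line. EpH4 stands to the right of the other lines for Epcam, Cldn3 and Cldn7 and to the left for Vim and Cdh2, while for Fn1 and Axl the 4 lines nearly coincide.

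Among the EMT transcription factors, 2 of 17 tested lay above each other line (11.8%) and 7 below each (41.2%), with a median difference of -0.49 after stimulation and -0.21 at rest. Zeb1, a repressor of E-cadherin and of many epithelial genes, was at 6.87 in EpH4, against 10.35 in mProx, 9.92 in MCT and 10.86 in NMuMG. The difference was -3.51 with an SE of 0.49 and did not pass (adjusted p = 0.152). EpH4 was more than 4-fold below each line, though above the dim level. Zeb2 was at 6.12 in EpH4, against 7.10, 7.38 and 9.50, a direction shared by 2 of its 3 further probe sets above the dim level. Twist2 was at 5.39 in EpH4, against 9.96, 8.76 and 7.01. Hmga2, a chromatin protein that TGF-β raises and that acts on Snail and Twist genes, was at 8.57 in EpH4, against 10.34, 12.15 and 12.14.

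Snai1, Snai2 and Twist1 gave no such separation. Snai1 was at 6.99 in stimulated EpH4, against 5.46 in mProx, 6.69 in MCT and 8.39 in NMuMG. Snai2 was at 7.02 in EpH4, against 8.14, 6.01 and 7.50. Twist1 was at 6.77 in EpH4, between 4.99 in mProx and 8.02 in NMuMG, and MCT was dim at 3.73. Snai3, the remaining Snail gene and named after its values were seen, was at 6.44 in EpH4, above 5.49, 6.16 and 5.36. For Snai1, Snai2 and Twist1 stimulated EpH4 lay inside the range of the other lines, and the sign of the mean difference of Snai1 and Snai2 turned when mProx was left out.

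Mesenchymal cytoskeleton and surface genes were mixed. Of 15 tested cytoskeleton genes 3 lay above and 6 below each other line, and of 17 surface genes 5 above and 5 below. Nes, encoding the intermediate filament nestin, was at 7.20 in EpH4, against 9.68 in mProx, 10.65 in MCT and 10.70 in NMuMG. S100a4, a calcium-binding protein used as a fibroblast marker, was at 8.18 in EpH4, against 12.71, 9.38 and 12.81. Nrp1, a coreceptor for semaphorins and VEGF, was at 6.94 in EpH4, against 11.19, 8.41 and 11.39. These 3 lay below each other line together with Vim and Cdh2.

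Other genes of these lists followed no single order. Tpm2, encoding a tropomyosin of contractile filaments, was at 11.72 in EpH4, against 6.40 in mProx, 9.89 in MCT and 6.81 in NMuMG. Axl, a receptor tyrosine kinase found on mesenchymal tumour cells, was at 11.40 in EpH4, against 11.50, 11.68 and 12.24. Nt5e, a surface nucleotidase used as a mesenchymal marker, was at 10.89 in EpH4, against 8.94, 9.61 and 8.15, which 1 of its 2 further probe sets shared in direction. Tagln, a smooth muscle actin-binding protein, was dim in EpH4 at 4.84 and in MCT at 3.95, against 7.46 in mProx and 10.29 in NMuMG. Acta2, encoding the smooth muscle actin of myofibroblasts, was dim on all 4 stimulated arrays and was not tested.

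Matrix genes ran both ways. Of 27 tested stromal matrix genes 1 lay above each other line (3.7%) and 7 below each (25.9%). The share below is close to the 24.5% of all genes, and 3 members were at least 4-fold below each. Loxl1, a lysyl oxidase that crosslinks elastin, was at 6.48 in EpH4, against 10.19 in mProx, 9.57 in MCT and 11.02 in NMuMG. Col5a1, a fibrillar collagen chain, was at 6.16 in EpH4, against 9.37, 9.06 and 9.92, and Col6a2, of the microfibrillar collagen, was dim in EpH4 at 5.03, against 9.69, 7.06 and 8.62. These were the 3 genes at least 4-fold below each line, and their adjusted p were 0.197, 0.168 and 0.425.

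Fibronectin and periostin ran otherwise. Fn1, encoding fibronectin, the matrix protein that TGF-β classically raises, was at 12.97 in stimulated EpH4, against 13.03 in mProx, 13.12 in MCT and 13.36 in NMuMG, a difference of -0.21 with an SE of 0.18 (adjusted p = 0.776). At rest Fn1 was at 12.79 in EpH4, against 11.60 in mProx, 10.98 in MCT and 13.26 in NMuMG. Postn, encoding periostin, a matricellular protein made by activated fibroblasts, was the 1 gene above: 12.23 in EpH4, against 7.07, 5.45 and 5.69 (difference 6.15, SE 0.77, adjusted p = 0.128). Postn was already at 11.77 in resting EpH4. Col1a1, a chain of type I collagen, was at 7.53 in EpH4 and 7.72 in NMuMG, against 6.50 in mProx and 5.26, dim, in MCT.

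The basement membrane list separated by chain. The laminin chains Lama3 and Lamb3, parts of the laminin that anchors hemidesmosomes, were highest in EpH4. Lama3 was at 9.59 in EpH4, against 3.81 in mProx, 5.28 in MCT and 5.87 in NMuMG, and Lamb3 at 11.27, against 6.77, 8.41 and 6.71. Their receptor subunit Itgb4, which pairs with a laminin-binding alpha chain in hemidesmosomes, was at 9.36 in EpH4, against 3.71, 7.95 and 5.83. Itga6, encoding that alpha chain, and Col17a1, a hemidesmosome collagen, were named after their values were seen and did not share this order. Itga6 was at 9.68 in EpH4, against 11.46, 10.50 and 8.55, and Col17a1 was dim on all 4 stimulated arrays. The type IV collagen chain Col4a1 was at 5.63 in both EpH4 and MCT, against 10.34 in mProx and 11.86 in NMuMG. Of 16 tested basement membrane genes 4 lay above each other line and 6 below, and of 16 integrin genes 4 above and 2 below.

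Among 18 tested matrix proteases and inhibitors, 6 lay above and 6 below each other line. Mmp9, a gelatinase of basement membrane turnover, was at 10.47 in stimulated EpH4, against 5.79 in mProx, 5.66 in MCT and 4.02 in NMuMG. Timp3, an inhibitor of metalloproteases bound to the matrix, was at 12.00 in EpH4, against 5.86, 7.79 and 10.22. Plat, encoding tissue plasminogen activator, was at 6.31 in EpH4, against 9.73, 9.78 and 9.37 (difference -3.32, SE 0.41, adjusted p = 0.125). Its counterpart Plau, encoding urokinase, had the reverse order, with 7.89 in EpH4 against 5.39, 5.81 and 6.25. One further Plat probe set did not share the direction.

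**Figure D3:**
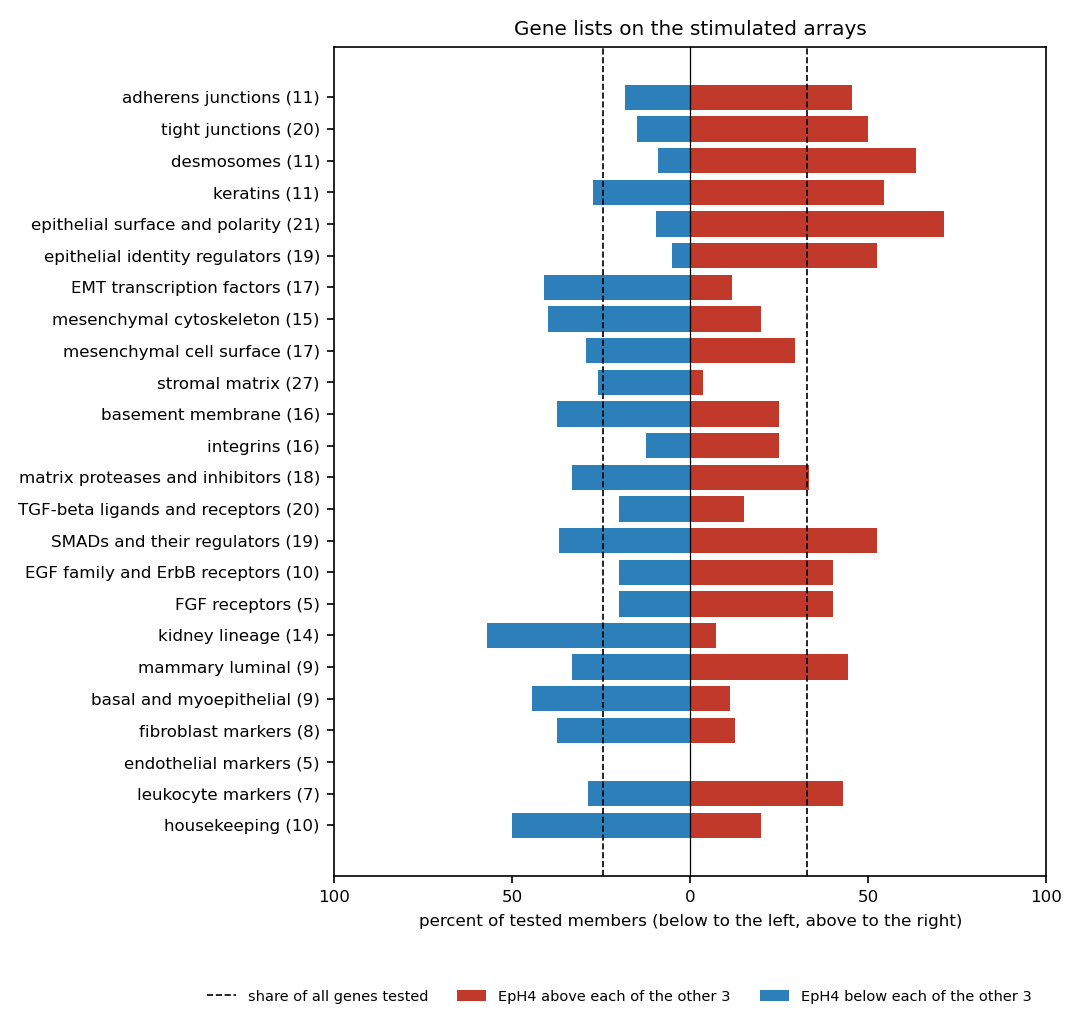
Share of the tested members of each of 24 gene lists for which stimulated EpH4 lay above each of the other 3 lines (red, to the right) or below each (blue, to the left), in percent, with the number of tested members in parentheses. Dashed lines mark the shares over all genes tested, 32.7% and 24.5%. Epithelial surface and polarity reaches 71.4% to the right and kidney lineage 57.1% to the left. The kidney lineage share includes genes that were dim in both EpH4 and NMuMG.

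The receptors needed to sense the 2 growth factors were measured in EpH4. Tgfbr1, the type I TGF-β receptor, was at 9.43 in stimulated EpH4, against 9.26 in mProx, 9.64 in MCT and 9.87 in NMuMG, and Tgfbr2, the type II receptor, was at 10.90, against 12.07, 10.77 and 11.79. Smad3, a receptor-activated SMAD, was at 9.77 in EpH4, against 10.18, 9.85 and 10.38, and neither of its 2 further probe sets shared the direction. Egfr, the EGF receptor, was at 8.19 in EpH4, against 9.77, 9.01 and 10.16, and thus lowest there. For Tgfbr1 and Tgfbr2 EpH4 lay within the range of the other lines, and both further Tgfbr1 probe sets had the opposite sign. Of 20 tested ligands and receptors 3 lay above and 4 below each other line, with 0 by 4-fold.

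Several inhibitors of TGF-β signalling were highest in EpH4. Smad7, an inhibitory SMAD that TGF-β itself induces, was at 10.84 in EpH4, against 8.04 in mProx, 9.09 in MCT and 10.27 in NMuMG. Smurf2, a ubiquitin ligase that acts with it, was at 11.54 in EpH4, against 10.43, 9.74 and 10.44, and its relative Smurf1 lay 1.08 above NMuMG, the nearest line. Pmepa1, another induced inhibitor, was at 12.37 in EpH4, against 9.66, 11.81 and 11.54. Smad6, the other inhibitory SMAD and named after its values were seen, was lowest in EpH4 at 7.19, against 8.88, 7.38 and 8.20. Smad7, Smurf1, Smurf2 and Pmepa1 were each above every other line, by 0.56 to 1.10 over the nearest, and none passed the test. The other Smad7 probe set did not share the direction. All of these were already highest in EpH4 at rest. Smad7 was then at 9.90, against 8.03, 8.50 and 9.48, and Pmepa1 at 11.48, against 8.44, 8.74 and 10.40. Smurf1 was then at 10.44, against 8.84, 9.26 and 9.72, and Smurf2 at 11.14, against 10.14, 9.15 and 10.07. Tgif2 of the same list, named after its values were seen, was lowest in stimulated EpH4, at 7.30 against 8.28, 8.14 and 8.24.

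The Id genes, which BMP signals raise and which restrain helix-loop-helix factors, did not share 1 order. Id2 was at 5.49 in EpH4, against 9.25 in mProx, 8.10 in MCT and 6.23 in NMuMG, and Id1 was at 8.05, against 9.05, 9.26 and 9.81. Id3 was at 5.75 in EpH4, against 7.17, 7.11 and 7.21. These 3 lay below each other line. Id4, named after its values were seen, was highest in EpH4, at 6.38 against 5.08, 5.77 and 4.35. Of the 19 tested SMADs and regulators 10 lay above and 7 below each other line, with 0 at least 4-fold beyond.

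Among growth factor genes, Erbb3, a partner receptor of the EGF receptor family, was at 9.76 in EpH4, against 8.60 in mProx, 8.09 in MCT and 6.05 in NMuMG. Hbegf, an EGF receptor ligand, was at 8.46 in EpH4, against 10.08, 10.76 and 10.68. Fgfr2, whose epithelial splice form Esrp1 promotes, was at 8.85 in EpH4, against 7.69, 5.95 and 6.97, while Fgfr1 was at 9.10, inside the range of 9.0 to 10.57. These probe sets do not tell splice forms apart here. Of the 10 tested EGF family genes 4 lay above and 2 below, and of the 5 FGF receptor genes 2 above and 1 below.

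The tissue labels were checked against lineage markers, since EpH4 was compared with 2 kidney lines and 1 mammary line. Of 14 tested kidney lineage genes 1 lay above and 8 below each other line (57.1%). Among those below, Lhx1, Cdh16, Hoxa10 and Cys1 were dim in both EpH4 and NMuMG, so their order between these lines is inexact. The 1 above was Osr1, at 8.635 in EpH4 and dim in both kidney lines and NMuMG, at 3.65, 5.24 and 3.65. EpH4 was thus at least 10.2-fold higher for this gene. Cdh16, a kidney cadherin, was dim in EpH4 at 3.82 and in NMuMG at 4.07, against 10.04 in mProx and 9.48 in MCT. Pkhd1 and Emx2, however, were measured in NMuMG too. Pkhd1, a ciliary protein gene of kidney tubules, was at 3.50 in EpH4, against 8.18 in mProx, 5.89 in MCT and 9.55 in NMuMG, and Emx2, a homeobox gene of the developing kidney, at 3.79, against 9.47, 6.35 and 6.91. For the kidney lines, tissue and line cannot be told apart.

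Mammary markers were uneven in EpH4. Elf5, a regulator of milk-producing cells, and Csn2, a milk casein, were dim on all 4 stimulated arrays. Gata3, a luminal transcription factor, was at 8.04 in EpH4, against 5.52 in mProx and dim levels of 4.15 in MCT and 3.88 in NMuMG. Xdh, which functions in milk fat secretion, was at 10.39 in EpH4, against 3.98, 7.27 and 8.13. Of 9 tested luminal genes, a list without Gata3, 4 lay above and 3 below each other line. The 3 below were Csn3, Mfge8 and Aldh1a3. Csn3, another casein gene, was at 5.44 in EpH4 and 5.46 in NMuMG, against 8.89 in mProx and 10.63 in MCT. This casein was thus highest in the kidney lines. Mfge8 was at 9.70 in EpH4 and 10.63 in mProx, the nearest line. Aldh1a3 was dim in EpH4 at 4.38, against 5.39, 4.97 and 4.76. Of the 9 tested basal and myoepithelial genes, a list without Krt14, 1 lay above and 4 below.

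The largest gaps in either direction were then listed over all genes, and the genes in this paragraph and the next were named after their values were seen. Crabp2, a retinoic acid-binding protein, had the widest gap above, at 12.14 in EpH4 and 4.23, 3.98 and 3.64 in mProx, MCT and NMuMG, at least 115-fold higher (adjusted p = 0.0726). Mapk13, a stress-activated kinase of epithelia, was at 10.76 in EpH4, against 3.87, 4.63 and 4.16. Mal2, a protein of apical transport, was at 9.25 in EpH4, against 3.94, 3.51 and 3.97, and Gjb2, encoding a gap junction connexin and just outside the 12 widest gaps, was at 10.99, against 5.97, 4.58 and 5.77. The matrix gene Postn, described above, also lay just outside the 12, with a wider gap than Gjb2. It was at 12.23 in EpH4 and 7.07 in mProx, the nearest line. Cldn3, Krt14, Cldn7, Rab25, Epcam, Krt7 and Ap1m2, all described above, made up 7 of the 12 widest gaps. Crabp2, Mapk13, Mal2, Il18r1 and Artn were the other 5. Il18r1, an interleukin receptor, was at 10.19 in EpH4 and Artn, a neurotrophic ligand, at 9.73, and both were dim elsewhere.

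Below the other lines, the widest gaps after Vim belonged, apart from that of Cdh2, to genes outside the mesenchymal lists. Pmaip1, which encodes the pro-apoptotic protein Noxa, was at 3.44 in EpH4, against 10.48 in mProx, 11.64 in MCT and 10.96 in NMuMG, at least 53.3-fold lower. Cdkn2b, a cell cycle inhibitor that TGF-β induces, was at 3.73 in EpH4, against 10.57, 10.58 and 11.78, at least 51.6-fold lower, and its neighbour Cdkn2a was at 5.72, against 11.32, 11.22 and 9.69. F2r, the thrombin receptor, was at 5.39 in EpH4, against 11.90, 12.16 and 11.68 (difference -6.52, SE 0.34, adjusted p = 0.0661). These 4 genes were high in all of the other lines and at or near the dim level in EpH4. Cyba, a subunit of NADPH oxidase, was at 3.71 in EpH4, against 12.11, 11.62 and 10.40, and Col18a1, a basement membrane collagen, was at 6.09, against 12.09, 11.20 and 11.74.

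Most of these differences were present before the growth factors were added. Of the 182 genes at least 4-fold above each line after stimulation, 133 (73.1%) were so at rest, and they made up 74.7% of the 178 found at rest (1.23%). Of the 187 below, 127 (67.9%) were so at rest, 73% of the 174 at rest (1.2%), all at the offset of 10.6 alone. The remaining 49 above and 60 below had mostly been on the same side already: 45 of the 49 lay above each line at rest, 40 of them by at least 2-fold, and all 60 lay below each, 44 by at least 2-fold. In the resting comparison limma passed 0 genes as higher and 1 as lower (0.00691%), again Vim (difference -9.23, adjusted p = 0.0101).

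Whether the gap between EpH4 and the other lines changed with stimulation was tested on the change of each line, stimulated minus resting. No gene passed in limma (0 of 14474, 0%), where every adjusted p was 1 and 568 unadjusted p lay under 0.05. Among the genes separated after stimulation and not at rest, a few stood out by size and were chosen after their values were seen. The stimulated minus resting difference of Mmp9 was 2.79 in EpH4, against -0.34 in mProx, 1.55 in MCT and -1.44 in NMuMG. Sfn, encoding stratifin, an epithelial adaptor protein, differed by 2.25 in EpH4, against -0.16, -0.16 and 0.25, and was at 10.26 in stimulated EpH4, against 6.15, 5.25 and 4.38. Sfn was the steadier of the pair across the other lines (difference of changes 2.27, SE 0.40).

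On the lower side, the genes named here, chosen the same way, ended dim in EpH4. For Sox13, a transcription factor gene, the difference was -1.87 in EpH4, against 0.65 in mProx, -0.09 in MCT and 0.07 in NMuMG, and its stimulated level in EpH4 was 4.13. Tgfb1i1, encoding a TGF-β-induced focal adhesion protein, differed by -1.07 in EpH4, where it was dim in both states, against 0.34, 1.01 and 0.26. It was at 3.76 in stimulated EpH4, against 6.71, 9.23 and 9.92. None of these changes has a replicate within a line.

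**Figure D4:**
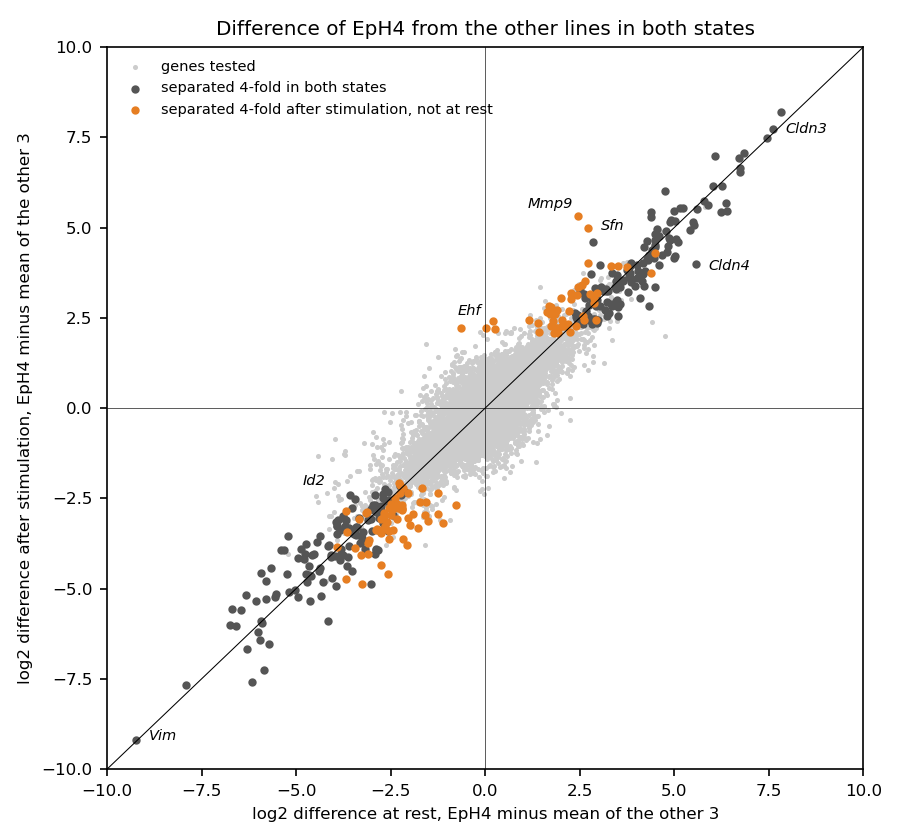
Difference between EpH4 and the mean of mProx, MCT and NMuMG after stimulation (vertical axis, log2) against the same difference at rest (horizontal axis, log2), 1 point per gene. Grey points separated at least 4-fold in both states lie along the line of equality, with Vim at -9.23 at rest and -9.19 after stimulation. Orange points separated only after stimulation include Mmp9, Sfn and Ehf. The separation of Ehf rests on dim levels in the other lines, with a bound of 1.56-fold.

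E-box letters were looked up in promoters because ZEB and Snail repressors bind them. The letters were CACCTG on either strand, which reads CAGGTG on the other, in windows of 300 bases, from 250 before to 50 after a gene's start, taken from RefSeq on GRCm38.p6. Of all 32851 windows 20.2% held the letters. They were in at least 1 window of 22.1% of the 11595 tested genes with a promoter, 39.4% of the 142 genes at least 4-fold above each line and 16.3% of the 147 below. They were in 50% of the 58 genes with a promoter among 93 tested genes of the 6 epithelial lists. For the 4 mesenchymal lists the share was 12.5% of 48 such genes among 76. No promoter was available for Cdh1 or Esrp1, so neither was examined. The windows per gene averaged 1.27 for the tested genes and 1.30, 1.41, 1.36 and 1.19 for these sets in the same order. The shares are a description, with no test, and matching letters are neither a bound site nor a cause. Promoters are shown for 4 genes that were high in EpH4, dim in at least 2 of the other lines and held at least 2 matches, and for Vim as the contrast. They were chosen for their matches and do not stand for all such genes. Krt14 and Gata3, also high in EpH4 and dim in at least 2 other lines, held none, and Snai1, Sparc and Myl9 of the mesenchymal lists held 1 each. Epcam lies at chr17:87635729-87636028 on the plus strand, the second of the Cldn7 windows at chr11:69965171-69965470 on the plus strand, Rab25 at chr3:88548230-88548529 on the minus strand, Ap1m2 at chr9:21312284-21312583 on the minus strand and Vim at chr2:13574061-13574360 on the plus strand. Capitals mark the E-box letters, and each sequence runs 5′ to 3′ along the gene.
Epcam: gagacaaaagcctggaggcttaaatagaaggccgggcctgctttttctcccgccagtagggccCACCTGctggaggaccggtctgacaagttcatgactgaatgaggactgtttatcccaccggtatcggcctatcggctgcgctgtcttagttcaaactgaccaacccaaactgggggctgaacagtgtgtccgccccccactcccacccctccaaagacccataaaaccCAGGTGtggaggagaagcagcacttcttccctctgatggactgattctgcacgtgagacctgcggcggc
Cldn7: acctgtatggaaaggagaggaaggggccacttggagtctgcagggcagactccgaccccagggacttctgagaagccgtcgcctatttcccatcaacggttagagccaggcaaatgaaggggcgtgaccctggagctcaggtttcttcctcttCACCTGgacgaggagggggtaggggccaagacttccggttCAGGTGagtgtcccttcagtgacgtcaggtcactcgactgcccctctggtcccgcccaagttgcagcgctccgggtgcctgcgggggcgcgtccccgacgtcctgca
Rab25: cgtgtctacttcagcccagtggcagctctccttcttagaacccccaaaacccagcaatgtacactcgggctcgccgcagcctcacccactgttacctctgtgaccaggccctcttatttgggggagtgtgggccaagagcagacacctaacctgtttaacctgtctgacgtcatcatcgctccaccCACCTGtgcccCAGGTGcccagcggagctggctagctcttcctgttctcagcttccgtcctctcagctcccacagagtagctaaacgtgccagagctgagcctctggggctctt
Ap1m2: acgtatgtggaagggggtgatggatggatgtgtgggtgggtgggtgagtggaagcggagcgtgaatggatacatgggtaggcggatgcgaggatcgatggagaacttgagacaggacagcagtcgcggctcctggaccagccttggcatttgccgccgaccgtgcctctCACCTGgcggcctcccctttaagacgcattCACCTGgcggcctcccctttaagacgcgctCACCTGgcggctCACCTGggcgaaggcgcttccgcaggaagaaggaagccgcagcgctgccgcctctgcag
Vim: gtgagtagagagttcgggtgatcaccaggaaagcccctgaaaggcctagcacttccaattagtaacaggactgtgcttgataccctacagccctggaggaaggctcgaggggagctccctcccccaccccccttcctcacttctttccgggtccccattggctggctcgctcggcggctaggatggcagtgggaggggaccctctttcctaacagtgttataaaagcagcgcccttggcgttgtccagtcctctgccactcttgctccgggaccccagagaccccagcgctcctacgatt
The matches began 187 and 19 bases before the start in Epcam, 97 and 57 before it in Cldn7, 64 and 53 before it in Rab25, and 81, 51, 21 and 9 before it in Ap1m2. In the Vim window these letters do not occur.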

How the data were processed

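The deposited values are array intensities (signals on a linear scale) for 45101 probe sets of a single-colour Affymetrix array, made with MAS5 per the submitters' processing notes; the version and scaling target of MAS5 were not given in the sources used here. All else was computed from these intensities, without the 64 control probe sets. To each signal 10.6 (25th percentile of positive signals) was added as an offset, log2 was taken, and the 8 arrays were quantile-normalised. The offset understates differences of dim genes. Of the remaining 45037 probe sets, 34945 have 1 gene symbol in the platform annotation, 932 several and 9160 none; 34741 symbols matched the gene table of GRCm38.p6. Each of 18193 genes kept its brightest probe set over the 8 arrays, avoiding cross-hybridising ones. Tested were the 14474 genes with at least 1 stimulated array at the 40th percentile (5.29), so a gene could enter through EpH4 alone, and list counts over tested members are descriptions.

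The tests used limma 3.58.1 (R 4.3.3; lmFit, eBayes with an intensity trend) and Benjamini-Hochberg adjustment at 0.05, separately for stimulated arrays, resting arrays and the change within lines. Lines are the replicates; p-values measure only the spread between them. The scripts were tested on simulated data, where 38% of changes of 4 log2 units and 72% of changes of 8 were recovered. A gene that did not pass can therefore still differ. Separation of at least 4-fold beyond each other line is a description. A bound ("at least N-fold") sets dim levels to 5.29. The panel of 68 genes, the 24 lists and the comparison were chosen with earlier results of these data known. Named are the panel, up to 15 genes each way past the threshold, and up to 6 members of each list with the largest differences; cell type markers come from a fixed list, and other genes are said to be named after their values were seen. Of the panel, 7 genes have no tested value, among them Cldn6, Elf5 and Acta2, which were dim on all stimulated arrays; the other 4 are not analysed here. Promoter sequences came from RefSeq on GRCm38.p6.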

Additional observations from a re-analysis of the deposited data

How the results depend on the processing

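With 1 array of EpH4 the counts of calls depend on the processing, and the levels less so. With no scaling between arrays, 2 genes passed as higher and 2 as lower after stimulation, 19 and 8 at rest, and 16 in the change. With the offset at the 50th percentile, 2 and 2 passed after stimulation, and the separated genes numbered 100 above and 84 below. With dim levels set to 5.29, 198 and 11 passed after stimulation and 347 and 11 at rest, and 123 genes were separated below; floored lines have no spread by construction. Without the intensity trend, 0 passed as lower in either state. With all 8 arrays and the line as a random block (correlation 0.751), 41 and 61 passed after stimulation and 45 and 65 at rest, among them Cldn3 (adjusted p = 0.00285), Cdh2 (0.00416), Rab25 (0.00578), Zeb1 (0.0277) and Epcam (0.0374). At a 2-fold separation there were 664 genes above and 610 below. Leaving out mProx, MCT or NMuMG in turn gave 0 to 1 genes lower after stimulation, 0 at rest, and 230 to 272 separated above and 245 to 325 below. The cause of the other shifts was not tested.

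Of 167 named genes 1 passed, and these changed sign: Elf3 to 0.13 and Tgfbr1 to 0.0495 when median-centred, 0.15 and 0.0642 with no scaling, Kdr to -0.0106 at the higher offset, Dpt to -0.0493 with the floor, and Col3a1 to 0.0396, Tgfbr1 to 0.32, Fgfr4 to -0.21 and Sdha to -0.43 with the mean of a gene's probe sets. Without mProx, Krt18 turned to -0.0608, Snai1 to -0.55, Snai2 to 0.27, Col3a1 to 0.17, Dkk3 to 0.85, Dcn to 0.25, Kdr to -0.34 and Cldn5 to 0.0371. Without MCT, Cdh3 turned to 0.96, Elf3 to 0.29 and Cldn5 to 0.17, and without NMuMG, Pdgfrb to 0.43, Lox to 0.54 and Col4a5 to -0.23. No paired analysis was possible because EpH4 and the other lines share no cultures or replicate numbers in the labels that would pair stimulated EpH4 with 1 of the other lines. Signal over background limits every value under 5.29.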

Other observations

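Genes of sterol and fatty acid synthesis lay below their levels in the other lines on the EpH4 arrays, a pattern chosen after the values were seen and given with no test. Of 17 measured genes of sterol synthesis, 17 lay below each of the other lines after stimulation, 5 of them at least 4-fold, against 24.5% of all genes below each. The median difference was -1.75 after stimulation and -1.38 at rest, where 17 also lay below each line. Cyp51, which demethylates lanosterol, was at 9.15 in stimulated EpH4, against 12.40 in mProx, 12.21 in MCT and 11.98 in NMuMG. Lss, which makes lanosterol, was at 6.23 in EpH4, against 10.51, 8.74 and 9.56. Both lay at least 4-fold below the lowest of the other lines.

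Of 10 genes of fatty acid synthesis, 10 lay below each line after stimulation and 9 at rest, 3 of them at least 4-fold after stimulation, with medians of -1.33 and -1.13. Fasn, encoding fatty acid synthase, was at 9.26 in stimulated EpH4, against 11.44 in mProx, 11.56 in MCT and 11.44 in NMuMG. Fads1, a desaturase of polyunsaturated fatty acids, was at 9.11 in EpH4, against 12.27, 12.12 and 12.10. None of these genes passed limma's test of stimulated EpH4 against the other lines.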
